A study of Oryza sativa with 12 samples.

Results

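The genes described here are 10 rice genes of sodium and potassium transport, listed by locus. The list was made with earlier results of these data known. They are the plasma membrane Na+/H+ exchanger SOS1 (Os12g0641100), its kinase CIPK24 (Os06g0606000) and calcium sensor CBL4 (Os05g0534400), and the vacuolar exchangers NHX1 (Os07g0666900) and NHX2 (Os05g0148600). The others are the HKT transporters HKT1;5 (Os01g0307500) and HKT2;1 (Os06g0701700), the potassium channel AKT1 (Os01g0648000), and the potassium transporters HAK1 (Os04g0401700) and HAK5 (Os01g0930400). Of these, 9 had a row among the 35204 gene IDs listed for each library, and HKT1;5 is not analysed here. The files give IDs without names, and none of the 10 IDs stands in the RefSeq gene table of the assembly ASM3414082v1. That table does hold 7 of the names, each on the chromosome number that the ID carries, and it holds no entry under SOS1, NHX1 or NHX2.

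Plant cells in saline water take up sodium along with potassium, and keep the cytosol low in sodium by moving it out of the cell or into the vacuole. In the SOS pathway, salt raises cytosolic calcium, a CBL protein binds it and recruits the CIPK24 kinase, and the pair activates SOS1, which exports sodium in exchange for protons. NHX exchangers load sodium or potassium into the vacuole. HKT2;1 lets sodium into potassium-starved rice roots, AKT1 is the inward potassium channel of roots, and HAK1 and HAK5 are high-affinity potassium transporters induced by low potassium.

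RNA was taken from seeds of the wild type Zhonghua 11 (WT) and of an OsMFT1 knockout (osmft1), germinated in water or in 300 mM NaCl at 28 °C under 15 h of light and 9 h of dark. OsMFT1 is a MOTHER OF FT AND TFL1 gene, a family known for control of seed dormancy and of germination. The 4 groups (WT water, osmft1 water, WT salt, osmft1 salt) held 3 libraries each, with 14379728 to 15688593 counted reads per library. The labels name neither the knockout allele nor a line number, give no sampling time, and do not tie a group's libraries to separate seed lots. The p-values therefore cover only the variation among these 12 libraries, which may be technical. Without a sampling time, germination stage and the effects of salt or of the knockout cannot be told apart. In bulk seed RNA, fewer cells of a type and less RNA per cell cannot be told apart either.

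The targeted locus, taken as Os06g0498800, held 1 to 8 reads in each of the 12 libraries, too few to check the labels of genotype. Of 5 seed storage protein loci, written down from published knowledge as a check of the tissue and not named in the files, 4 passed the filter on low values, and Os02g0249800 stayed at 0 to 7 reads per library. Their summed level ran from 51.8 to 66.4 FPKM in WT water, from 356.9 to 852.6 in osmft1 water, from 68.2 to 107.5 in WT salt and from 175.4 to 289.6 in osmft1 salt, highest in osmft1 water replicate 1. A pair of loci for green tissue summed to at most 0.66 FPKM in any library. The storage loci thus stood apart between the genotypes, in water most of all. Their part in the differences between genotypes given below was not tested.

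Levels are given in FPKM, reads scaled by gene length and by library total, so they can be compared between genes only approximately. A trend on gene length remained that differed between libraries. Taking it out moved the log2 difference of SOS1 between genotypes in water from 0.90 to 0.47. In WT water CIPK24 (12.2 ± 2.15 FPKM, mean ± SD, n = 3) and CBL4 (12.1 ± 0.21) stood highest, and their ranges overlapped. NHX1 (7.51 ± 0.67), HAK1 (6.41 ± 0.96) and NHX2 (5.24 ± 0.64, n = 3) followed, each overlapping the next. SOS1 came below all of these, at 3.12 ± 1.19 FPKM (n = 3), where 33.3% of the 22017 tested IDs had a lower group mean. HAK5 (0.742 ± 0.155), HKT2;1 (0.409 ± 0.23) and AKT1 were at the bottom. The exporter SOS1 was therefore less abundant per length than the kinase and the sensor that regulate it, in every WT water library.

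In WT salt, CBL4 (48.8 ± 13.9 FPKM), NHX1 (46.2 ± 15.7) and CIPK24 (45.2 ± 3.85, n = 3) formed an overlapping group at the top, each above 86.8% or more of tested IDs. HAK1 stood well below them at 9.02 ± 1.37 FPKM, and SOS1 (3.23 ± 0.27) and NHX2 (2.43 ± 0.86) overlapped each other. In osmft1 salt CBL4 (43.6 ± 6.09) and CIPK24 (42.1 ± 4.41) overlapped at the top, and NHX1 (24.8 ± 2.23 FPKM, n = 3) came below both in all libraries.

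**Figure D1:**
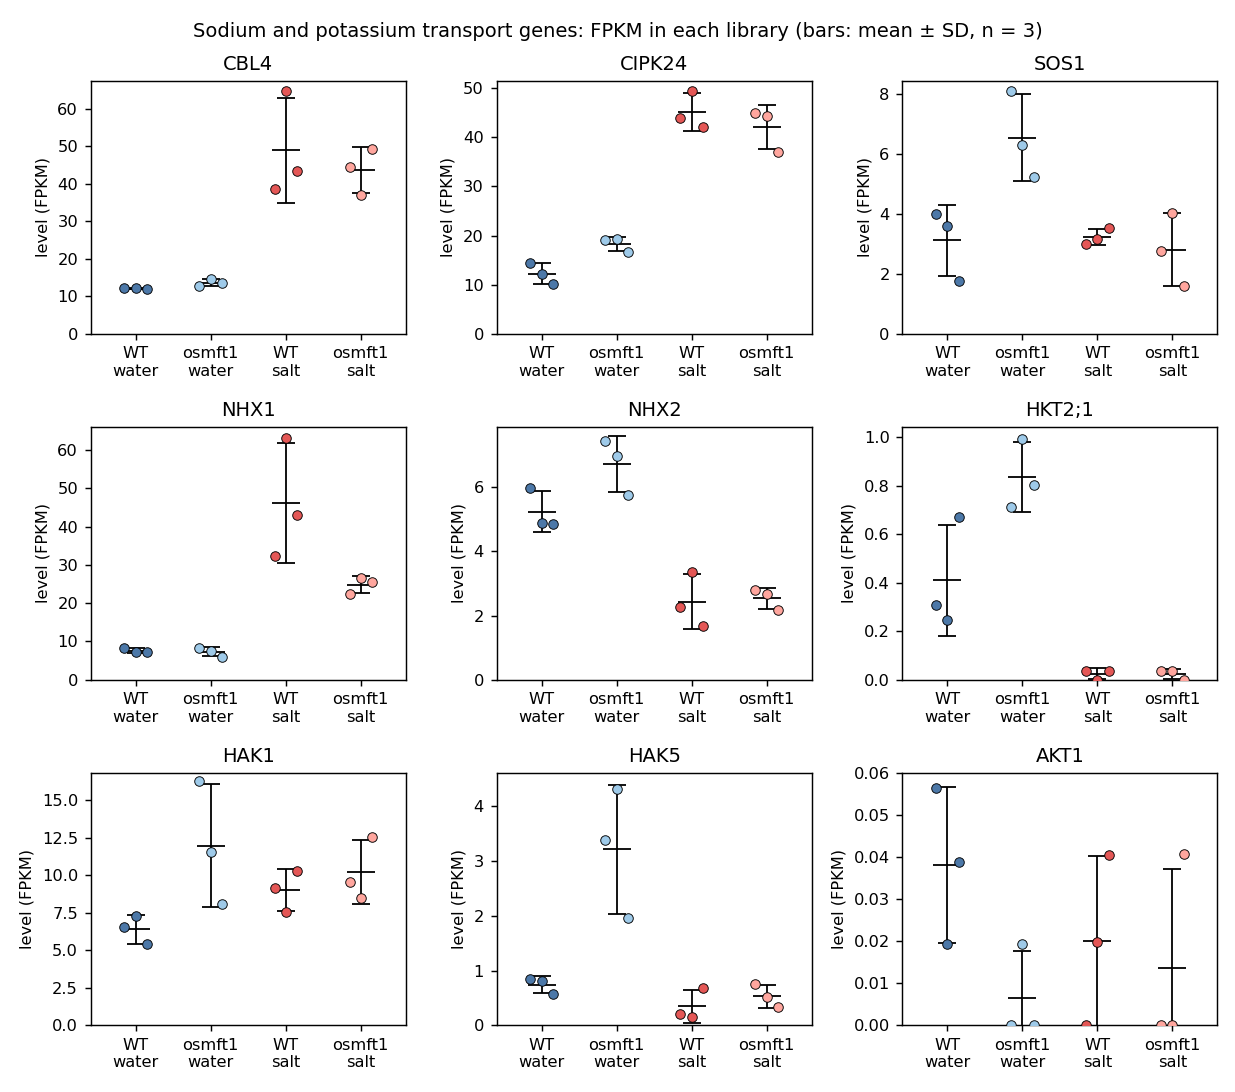
Level of each of the 9 genes in each library (y axis, FPKM, from 0, with its own scale in each panel) by group (x axis); points are libraries, and bars give the mean ± SD of 3 libraries, with the part under 0 not drawn. CBL4, CIPK24 and NHX1 are higher in all salt libraries than in all water libraries, NHX2 and HKT2;1 are lower, and AKT1 stays at 0 to 3 reads per library.

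The 7 genes that reached 1 FPKM in at least 3 libraries were tested with limma on log2(FPKM + 1), in a fit of all 12 libraries with p-values adjusted by Benjamini-Hochberg over 22017 IDs, and a gene was called at an adjusted p under 0.05. HKT2;1 and AKT1 fell under that filter. HAK5 passed it through the osmft1 water libraries alone, so its presence among the tested genes depends on the group where it is high.

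How the wild type responded to 300 mM NaCl was asked by comparing its salt and water libraries. Of the 7 tested genes 4 were called, against 55.9% of all tested IDs. Of these, 3 rose (CBL4, CIPK24 and NHX1), where 27.7% of all tested IDs were called higher, and 1 fell (NHX2), where 28.2% were called lower. The median log2 difference of the 7 genes was 0.43, beside 0.04 over all tested IDs. In osmft1 the same comparison called 6 of the 7 genes, against 46.0% of all tested IDs. Again 3 rose (20.5% of all were called higher), and SOS1, NHX2 and HAK5 fell (25.5% of all were called lower). Because HAK5 passed the filter only through osmft1 water, its fall there is not independent of the filter. There the median of the 7 genes was -0.18, beside -0.11 over all tested IDs.

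The calcium sensor CBL4 was not called between the genotypes in water and was higher in salt. It stood at 12.1, 12.2 and 11.8 FPKM in the WT water libraries and at 38.5, 64.7 and 43.4 FPKM in WT salt. In osmft1 it stood at 12.7, 14.7 and 13.45 FPKM in water and at 44.4, 37.1 and 49.2 FPKM in salt. Every salt library lay above every water library in both genotypes. CBL4 rose 4.05-fold in WT, a log2 difference of 1.90 ± 0.17 (limma SE; adjusted p = 4.12e-06), and 3.198-fold in osmft1, a log2 difference of 1.60 ± 0.17 (limma SE; adjusted p = 2.78e-05). Folds are ratios of mean FPKM, and log2 differences are of log2(FPKM + 1), a scale that makes changes of low genes look smaller.

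The kinase CIPK24 moved much like its sensor. It stood at 14.4, 12.2 and 10.1 FPKM in WT water and at 43.9, 49.5 and 42.1 FPKM in WT salt. In osmft1 it stood at 19.0, 19.3 and 16.75 FPKM in water and at 44.99, 44.3 and 37.0 FPKM in salt. The groups in water did not overlap with those in salt, and the osmft1 water libraries also lay above all WT water libraries. CIPK24 rose 3.69-fold with salt in WT (log2 difference 1.81 ± 0.13, limma SE; adjusted p = 1.2e-06) and 2.30-fold in osmft1 (1.15 ± 0.13, limma SE; adjusted p = 4.93e-05). Of the 21 pairs among the 7 tested genes, CIPK24 and CBL4 were the most alike over the 12 libraries, with a root-mean-square difference of 0.28 between their centred log2 values. The level of CBL4 divided by that of CIPK24 had a median of 1.01 in WT water, 1.03 in WT salt, 0.763 in osmft1 water and 0.987 in osmft1 salt.

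SOS1, the exporter that these partners activate, was not called with salt in WT and fell in osmft1. It stood at 3.996, 3.59 and 1.77 FPKM in WT water and at 3.002, 3.16 and 3.53 FPKM in WT salt, from 170 to 397 reads per library. The WT groups overlapped, and the log2 difference of 0.08 had a 95% interval from -0.51 to 0.67 (limma, adjusted p = 0.813). In osmft1 it stood at 8.10, 6.28 and 5.24 FPKM in water and at 2.77, 4.03 and 1.59 FPKM in salt. All osmft1 water libraries lay above all other libraries of the gene. SOS1 fell with salt in osmft1 to 0.428 of its water level (log2 difference -1.02 ± 0.27, limma SE; adjusted p = 0.00899). Without both osmft1 libraries numbered 1 this call was lost (-0.90, limma, adjusted p = 0.0662). The difference between the genotypes in the SOS1 response, -1.11 ± 0.38 (SE), did not pass (limma adjusted p = 0.072), while with voom it did (-1.43; limma, adjusted p = 0.0464). With the length trend removed it was -0.59 and was not called (limma, adjusted p = 0.222). Of 20 alternatives, 17 left it uncalled.

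The proportions within the SOS pathway differed between water and salt. The level of CIPK24 divided by that of SOS1 was 3.39 to 5.72 in WT water and 11.9 to 15.65 in WT salt. In osmft1 it was 2.35 to 3.197 in water and 11.0 to 23.2 in salt. The level of CBL4 divided by that of SOS1 likewise went from 3.03 to 6.69 in WT water to 12.3 to 20.45 in WT salt, and from 1.57 to 2.57 to 9.21 to 30.85 in osmft1. For both ratios no water library reached a salt library of its own genotype.

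**Figure D2:**
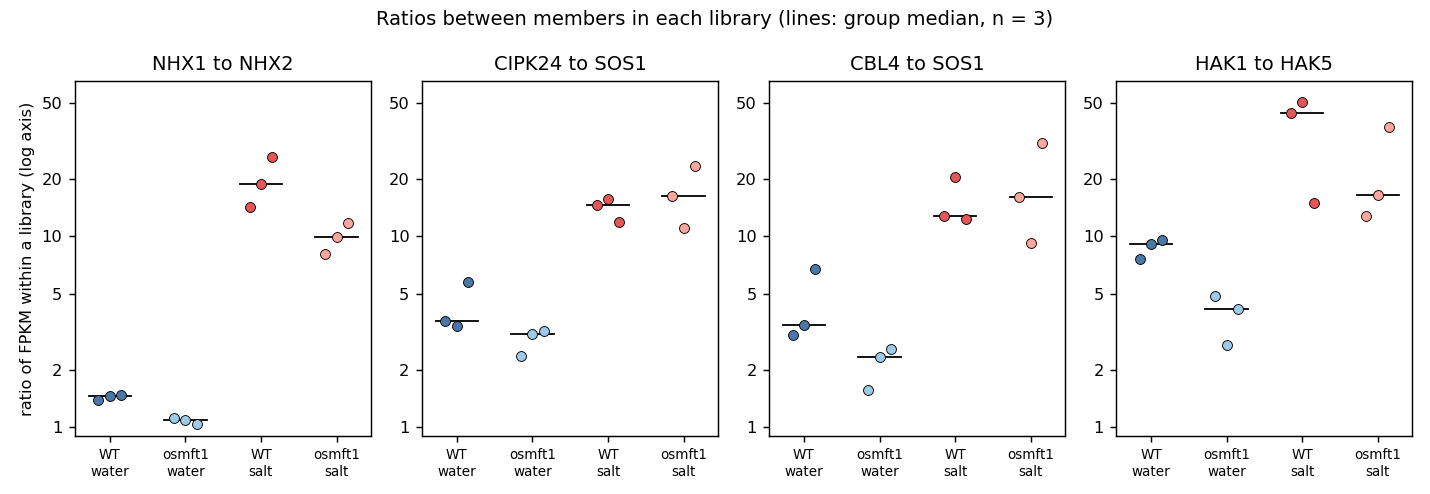
Ratio of the FPKM levels of 2 genes within each library (y axis, log scale) by group (x axis); points are libraries and lines are medians of 3 libraries. The ratio of NHX1 to NHX2 has a median of 1.45 in WT water and 18.85 in WT salt, against 1.09 and 9.95 in osmft1, and the ratios of CIPK24 and CBL4 to SOS1 are higher in salt in both genotypes.

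The vacuolar exchangers moved in opposite directions. NHX1 stood at 8.29, 7.09 and 7.16 FPKM in WT water and at 32.3, 63.2 and 43.1 FPKM in WT salt. In osmft1 it stood at 8.34, 7.60 and 5.99 FPKM in water and at 22.3, 26.65 and 25.5 FPKM in salt. The genotypes overlapped in water, while in salt every osmft1 library lay below every WT library. NHX1 rose 6.15-fold in WT (log2 difference 2.42 ± 0.20, limma SE; adjusted p = 2.75e-06) and 3.40-fold in osmft1 (1.64 ± 0.20, limma SE; adjusted p = 7.87e-05). In osmft1 this rise was close to that of CBL4 (1.60), and which of the pair was larger changed when 1 library was left out: without osmft1 water replicate 3 the log2 differences were 1.52 for NHX1 and 1.59 for CBL4, and without osmft1 salt replicate 2 they were 1.59 and 1.71.

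NHX2 stood at 5.97, 4.89 and 4.85 FPKM in WT water and at 2.27, 3.35 and 1.66 FPKM in WT salt. In osmft1 it stood at 7.44, 6.96 and 5.77 FPKM in water and at 2.78, 2.68 and 2.17 FPKM in salt. Water and salt libraries did not overlap in either genotype. NHX2 fell to 0.464 of its water level in WT (log2 difference -0.89 ± 0.18, limma SE; adjusted p = 0.00153) and to 0.378 in osmft1 (-1.12 ± 0.18, limma SE; adjusted p = 0.000499). In water both exchangers were thus at similar levels per length, with NHX1 at 1.04 to 1.48 times NHX2 over the 6 libraries. In salt NHX1 stood at 14.25 to 25.9 times NHX2 in WT and at 8.02 to 11.7 times NHX2 in osmft1.

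Among the genes for potassium and sodium entry, AKT1 was close to undetected. It held 6 reads over the 3 WT water libraries, 1 over osmft1 water, 3 over WT salt and 2 over osmft1 salt, and it did not exceed 0.056 FPKM in any library. The exact 95% Poisson interval of the 6 reads ran from 2.2 to 13.1 reads. No difference of AKT1 between groups was detectable at this depth.

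HKT2;1, the sodium entry transporter, was low in water and nearly at 0 in salt. It held 9, 7 and 19 reads in the WT water libraries (0.308, 0.246 and 0.672 FPKM) and 20, 28 and 23 reads in osmft1 water (0.71, 0.993 and 0.802 FPKM). In salt it held 1, 0 and 1 reads in WT and 1, 1 and 0 reads in osmft1. Water and salt libraries did not overlap in either genotype. The level in water was 16.7 times that in salt in WT, from 35 reads against 2 (exact 95% binomial interval 4.28 to 143), and 33.95 times that in salt in osmft1, from 71 reads against 2 (9.06 to 285.8). In each genotype the exact permutation test of the log2 values, two-sided, gave p = 0.1, the smallest that 3 libraries against 3 allow. With no filter on low values limma called the fall in WT (adjusted p = 0.00644) and in osmft1 (adjusted p = 0.000254). Read intervals cover counting error only. How reads shared between related genes were counted is not given in the sources used here, so the level of HKT2;1 is uncertain to that extent. The locus taken as HKT2;4, Os06g0701600, held 6 reads over all libraries, with 8 libraries at 0. That count does not show how shared reads were treated.

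HAK1 stood at 6.53, 7.30 and 5.40 FPKM in WT water and at 9.17, 7.58 and 10.3 FPKM in WT salt, groups that did not overlap. The log2 difference of 0.43 had a 95% interval from -0.05 to 0.92 and was not called (limma, adjusted p = 0.118). In osmft1 HAK1 stood at 16.3, 11.5 and 8.12 FPKM in water and at 9.56, 8.50 and 12.6 FPKM in salt. These groups overlapped, with a log2 difference of -0.18 and an interval from -0.67 to 0.31 (limma, adjusted p = 0.537).

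HAK5 stood at 0.855, 0.805 and 0.565 FPKM in WT water and at 0.206, 0.15 and 0.69 FPKM in WT salt, from 6 to 36 reads per library. These groups overlapped. The mean in WT salt was 0.47 of that in water, and the fall was not called (log2 difference -0.39, 95% interval -0.91 to 0.14; limma, adjusted p = 0.191). The size depended on the scale: the WT difference was -1.08 with a pseudocount of 0.1 and -1.35 with voom on recovered reads, neither called (limma, adjusted p = 0.0815 and 0.0692). In osmft1 it stood at 3.37, 4.30 and 1.96 FPKM in water and at 0.753, 0.518 and 0.335 FPKM in salt. The osmft1 water libraries lay above all others. HAK5 fell with salt in osmft1 to 0.167 of its water level (log2 difference -1.42 ± 0.24, limma SE; adjusted p = 0.000603). With a pseudocount of 0.1 the osmft1 difference was -2.37, and with voom -2.55, both called (limma, adjusted p = 0.00248 and 0.000453). Both fits kept the filter on low values, which HAK5 passed only through osmft1 water, so they are not independent of it. With no filter the osmft1 difference was -1.42 and was called (limma, adjusted p = 0.00107). The difference between the genotypes in this response, -1.04 ± 0.34 (SE), did not pass (limma, adjusted p = 0.062).

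**Figure D3:**
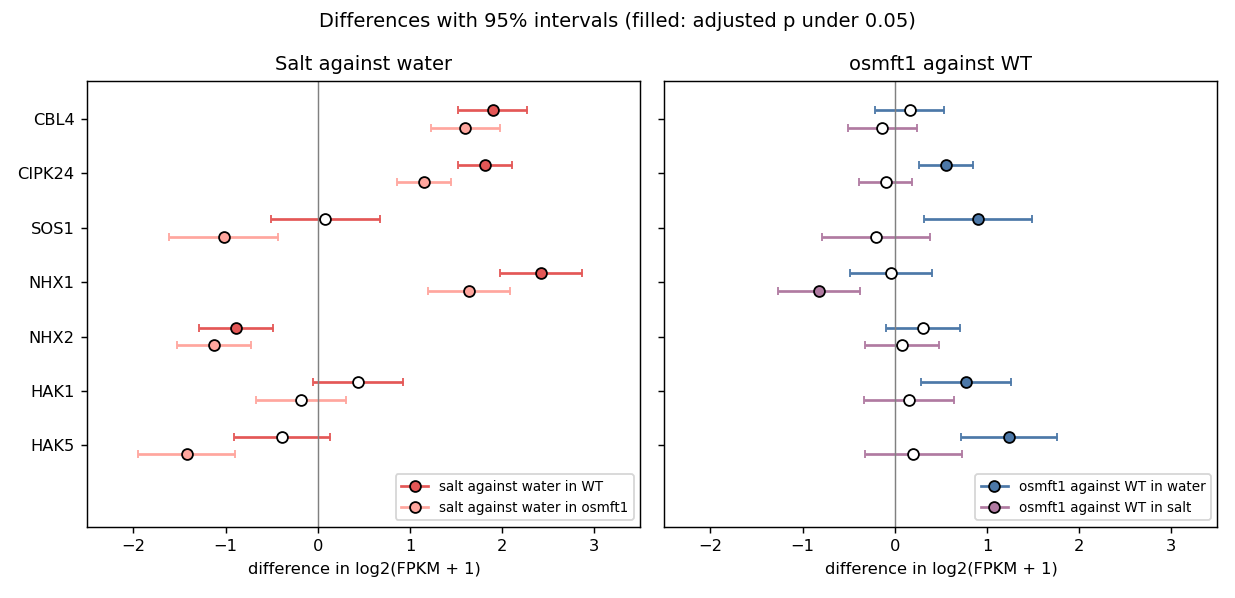
Difference in log2(FPKM + 1) (x axis) for each of the 7 tested genes (y axis), salt against water in the left panel and osmft1 against WT in the right panel; points are limma estimates, lines 95% intervals, and filled points have an adjusted p under 0.05. CBL4, CIPK24 and NHX1 lie right of 0 and NHX2 left of 0 in both genotypes, and in water the 4 genes called between genotypes all lie right of 0.

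How the knockout differed without stress was asked by comparing the genotypes in water. Of the 7 tested genes 4 were called, against 30.4% of all tested IDs. All 4 were higher in osmft1, where 20.0% of all tested IDs were called higher and 10.4% lower. HAK5, 1 of these 4, passed the filter only through its high level in osmft1 water. Its part in the counts and the median of this comparison is therefore not independent of the filter. The median log2 difference of the 7 tested genes was 0.56, beside 0.11 over all tested IDs. HAK5 was 4.33-fold higher in osmft1 (log2 difference 1.24 ± 0.24, limma SE; adjusted p = 0.00484). CIPK24 was 1.499-fold higher (0.56 ± 0.13, limma SE; adjusted p = 0.011), SOS1 2.098-fold higher (0.90 ± 0.27, limma SE; adjusted p = 0.0272) and HAK1 1.87-fold higher (0.77 ± 0.22, limma SE; adjusted p = 0.0244). For 5 of the 7 genes, these 4 and CBL4, the 3 osmft1 water libraries lay above the 3 WT water libraries, as did 30.8% of all tested IDs. CBL4 (0.16, 95% interval -0.21 to 0.53), NHX1 (-0.04, -0.49 to 0.40) and NHX2 (0.31, -0.09 to 0.71) were not called. HKT2;1 held 71 reads in osmft1 water against 35 in WT water, a ratio of 2.05 (exact 95% binomial interval 1.35 to 3.17), and its libraries did not overlap (exact permutation test, two-sided, p = 0.1). With no filter on low values limma called HKT2;1 higher in osmft1 water (log2 difference 0.39 ± 0.10, limma SE; adjusted p = 0.0302).

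The SOS1 and HAK1 calls depended on single libraries and on settings. SOS1 lost its call without WT water replicate 3 (log2 difference 0.64; limma, adjusted p = 0.106), without osmft1 water replicate 1 (0.76, adjusted p = 0.108) and without osmft1 water replicate 2 (0.92, adjusted p = 0.0599). HAK1 lost its call without the same libraries (0.67, 0.54 and 0.77; limma, adjusted p = 0.089, 0.1 and 0.058). With no filter on low values SOS1 was at the same difference and not called (limma, adjusted p = 0.0514). With each library's trend on gene length taken out, the differences were 0.47 for SOS1, whose implied length of 6333 bases is the longest of the 9 genes, and 0.46 for HAK1, and neither was called (limma, adjusted p = 0.129 and 0.127). HAK5 kept its call under all 21 alternatives (limma, adjusted p 0.00279 to 0.028), at 1.93 with a pseudocount of 0.1 and 2.04 with voom. Of these, only the fit with no filter on low values (limma, adjusted p = 0.00846) was free of the filter that HAK5 passed through osmft1 water. CIPK24 stood at 0.36 with median-ratio scaling, still called (limma, adjusted p = 0.0319), and lost its call in 1 of them, without both osmft1 libraries numbered 1 (0.53; limma, adjusted p = 0.053).

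How the knockout differed under stress was asked by comparing the genotypes in salt. Of the 7 tested genes 1 was called, NHX1, where 5.45% of all tested IDs were called and 1.12% were called lower. NHX1 was lower in osmft1, at 0.537 of the WT level (log2 difference -0.82 ± 0.20, limma SE; adjusted p = 0.0396), and its groups did not overlap. The call was lost without any of 8 of the 12 libraries (-0.87 to -0.57; limma, adjusted p 0.051 to 0.118), which were WT water replicates 2 and 3, osmft1 water replicate 2, WT salt replicates 2 and 3 and all 3 osmft1 salt replicates. With just the 6 salt libraries in the fit it was lost as well (limma, adjusted p = 0.134). The NHX1 call was also lost with no filter on low values (limma, adjusted p = 0.0698) and without both osmft1 libraries numbered 1 (limma, adjusted p = 0.13). Of 21 alternatives 10 kept it. The other 6 genes had log2 differences from -0.21 for SOS1 to 0.20 for HAK5, and HKT2;1 held 2 reads in each genotype. A change of HAK5 by as much as 0.72 or of SOS1 by as much as -0.79 lay within their 95% intervals.

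The interaction asked whether the response to salt depended on the genotype. It was called for 1 of the 7 tested genes, CIPK24, against 13.0% of all tested IDs (6.92% called positive and 6.12% negative). The rise of CIPK24 was smaller in osmft1 by 0.66 ± 0.19 in log2 (limma SE; adjusted p = 0.0433), from a higher level in osmft1 water to a similar level in salt. The call was lost without any of 9 of the 12 libraries (limma, adjusted p 0.0639 to 0.1), which were WT water replicates 2 and 3, osmft1 water replicates 1 and 2, all 3 WT salt replicates and osmft1 salt replicates 1 and 3. It was also lost with no filter on low values (limma, adjusted p = 0.0662) and with the length trend removed (limma, adjusted p = 0.0545), and 8 of 20 alternatives kept it. The estimates of all 7 genes were negative, from -0.24 for NHX2 to -1.11 for SOS1, with a median of -0.66 beside -0.03 over all tested IDs. The 95% intervals of CBL4, NHX2 and HAK1 included 0, and the share of all tested IDs with a negative estimate was not computed. All these estimates use the osmft1 water libraries, where 4 of the 7 genes were called higher than in WT and through which HAK5 passed the filter. The common sign is therefore not independent of the difference in water. For NHX1, whose rise was 6.15-fold in WT and 3.40-fold in osmft1, the interaction of -0.78 ± 0.29 (SE) did not pass (limma, adjusted p = 0.088). It passed without WT salt replicate 1 (-1.004; limma, adjusted p = 0.0425). HAK5 passed without osmft1 water replicate 3 (-1.27; limma, adjusted p = 0.0304). SOS1 passed without osmft1 salt replicate 2 (-1.34; limma, adjusted p = 0.0311), with voom and with the replicate block. Of 20 alternatives, 19 left NHX1 uncalled, 19 left HAK5 uncalled and 17 left SOS1 uncalled.

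A list of 27 further loci was written down from published knowledge of HKT, NHX and HAK transporters, potassium channels, CBL and CIPK partners and the proton pumps that energise sodium exchange. Neither the files nor the gene table pairs these IDs with names, so they are given as counts and by ID. All 27 had a row and 18 passed the filter on low values. With salt in WT 8 rose, 4 fell and 6 were not called, where 27.7% of all tested IDs were called higher and 28.2% lower. With salt in osmft1 7 rose, 4 fell and 7 were not called, where 20.5% of all were called higher and 25.5% lower. Os03g0576200, counted among the rises in both genotypes, averaged 0.172 FPKM in WT water and 0.155 in osmft1 water. In salt it averaged 1.07 FPKM in WT and 1.26 in osmft1, so it passed the filter only through salt libraries. Its part in both counts of rises is therefore not independent of the filter. In water 7 were higher in osmft1, none was lower and 11 were not called, beside 20.0% of all tested IDs called higher and 10.4% lower. In salt 1 was higher in osmft1, none was lower and 17 were not called, beside 4.33% of all called higher and 1.12% lower. The interaction was called negative for 2, positive for none and not called for 16, beside 6.12% of all called negative and 6.92% positive.

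The further loci with the largest called rise and fall in WT were picked after their values were seen. Os07g0150700 rose from 13.1 to 56.75 FPKM (log2 difference 2.06 ± 0.21, limma SE; adjusted p = 1.21e-05) and Os06g0178900 fell from 6.06 to 2.58 FPKM (-0.98 ± 0.19, limma SE; adjusted p = 0.000912). Os04g0656100 was the most abundant further locus and the locus called in salt between the genotypes, at 343.8 FPKM in osmft1 against 224 FPKM in WT (0.61 ± 0.10, limma SE; adjusted p = 0.00859). It was also higher in osmft1 in water, at 615.6 against 346.2 FPKM (0.83 ± 0.10, limma SE; adjusted p = 0.000701).

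The tested IDs whose pattern over the 12 libraries was most like that of SOS1 were Os03g0112400 and Os03g0143800. Their centred log2 values differed from those of SOS1 by a root-mean-square of 0.10 and 0.12, against a median of 0.61 for all tested IDs. Os03g0112400 averaged 16.3 FPKM in WT water, 31.5 in osmft1 water, 15.6 in WT salt and 15.95 in osmft1 salt. Both IDs were picked as the closest of all tested IDs over these same 12 libraries, so their likeness to SOS1 follows from the choice. No such comparison was made for AKT1, whose reads were too few.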

How the data were processed

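The authors deposited 1 value per gene ID for each of 12 libraries, treated here as FPKM because low values of an ID are whole multiples of a step that differs between IDs, with no unit in the file headers. Per the labels' protocols, total RNA went into NEBNext Ultra RNA libraries. The build IRGSP-1.0 and the tools HTSeq 0.6.0, HISAT2 2.1.0 and Bowtie2 2.2.3 are named in the submitters' processing notes, with no role. The annotation release and the use of strand were not given in the sources used here, so overlapping or antisense genes may share reads. The steps gave whole reads for all 255815 values above 0 of tested IDs, within 0.003 reads, and 99.9971% or more of the total implied for each library. Implied length is the smallest whole length that suits an ID's values.

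Sample titles gave the groups. The 22017 IDs that reached 1 FPKM in 3 or more libraries were tested with limma 3.58.1 in R 4.3.3 on log2(FPKM + 1), pseudocount 1, with 1 mean per group, a variance trend and 8 residual degrees of freedom, and Benjamini-Hochberg adjustment over all tested IDs for each comparison. Genes under the filter were compared by exact permutation tests, with exact Poisson and binomial intervals at 95%. Replicates of a group differed by a chi-square per degree of freedom of 7.521 or more, so no library repeats another within sampling noise. The fit and the recovery of reads were tested on simulated data. The rule for named genes took the 10 members, the counts of the further loci, and for SOS1 and AKT1 the closest IDs by root-mean-square difference. The members and lists were chosen with earlier results of these data known. Alternatives were another pseudocount (0.1), no filter, median-ratio and upper-quartile scaling, a replicate block, fits of 6 libraries, voom on recovered reads, removal of the length trend (medians of 20 length bins), and leaving out libraries. Python 3.11.15, pandas 2.3.3, numpy 2.4.6, scipy 1.17.1 and matplotlib 3.10.9 were used.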

Additional observations from a re-analysis of the deposited data

Results flagged for a closer look

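The salt response of CIPK24 differed between the genotypes by the interaction test, with a log2 difference of -0.66 ± 0.19 (limma SE; adjusted p = 0.0433). The kinase gene rose with salt in both genotypes, by 1.81 in WT and 1.15 in osmft1, and it was the only one of the 7 tested whose interaction was called with the settings used throughout. Of 20 alternatives 8 kept this call (limma, adjusted p 0.0217 to 0.129 over the 20). It was lost without any of 9 of the 12 libraries, with no filter on low values, with the length trend removed and without both osmft1 libraries numbered 1. SOS1, HAK5 or NHX1 passed under some of the alternatives, while 17 of 20 left SOS1 uncalled and 19 of 20 left HAK5 and NHX1 each uncalled.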

How the results depend on the processing

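Of 728 member values under 21 alternatives (20 for the interaction), 684 kept their side of the threshold, 39 lost a call and 5 gained one. No called value changed sign, while 10 values that were not called did. Called members with salt numbered 4 in WT under every alternative. In osmft1 they numbered 6 without any 1 library, and 5 or 6 under the others. For osmft1 against WT in water the count was 2 to 4 without 1 library, 3 with no filter (SOS1 lost) and with median-ratio scaling, 2 in fits of 6 libraries, 2 with the length trend removed and 1 without both osmft1 libraries numbered 1. For osmft1 against WT in salt it was 0 or 1 without 1 library, and 0 with no filter, in fits of 6 libraries and without both osmft1 libraries numbered 1. For the interaction it was 0 to 2 without 1 library, 0 with no filter, with the length trend removed and without both osmft1 libraries numbered 1, and 2 with voom (CIPK24 and SOS1). With the replicate block it was 2, the same pair (SOS1, limma, adjusted p = 0.0459), while the counts of 4, 6, 4 and 1 of the other comparisons did not move. The correlations of same-numbered libraries ran from -0.191 to 0.241, and 3 of the 12 such pairs lay over 0.1. A pairing by number was thus not evident, though these values cannot exclude it. In water, the median difference between genotypes over all tested IDs went from 0.11 to -0.05 (log2) with median-ratio scaling, and HAK1 then lost its call there (0.58; limma, adjusted p = 0.0625). Of the other members' directions that were called, none turned under either scaling. Depth limits AKT1 and HKT2;1 in salt.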
